A study of Homo sapiens with 6 samples.

Results

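Genes of the centrosome, of intraflagellar transport (IFT), of the BBSome and of the ciliary transition zone were followed in HCT116 cells, a human colorectal carcinoma line, after overexpression of the RNA-binding protein RBM47. The members were the protein-coding genes whose symbols belong to these families and whose mean count over all libraries was at least 10, which gave 79 of the 28491 genes in the count table. They comprised 45 centrosome genes, 14 IFT genes, 7 BBS genes and 13 transition zone genes, with CEP290 placed in the transition zone. BBS1 was the 1 of 80 matching genes under the count limit, with a mean count of 7.83. All 79 members passed the filter on low counts in edgeR, which left 16260 genes in all.

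Cells were transfected with an RBM47 plasmid (RBM47-OE, 3 libraries) or a control plasmid (NC, 3 libraries) and their poly(A) RNA was sequenced 48 h later. Both groups were HCT116 cells transfected by lipofection, without any other agent. For the RBM47 construct the sample labels name pcDNA3.1-3xFlag, whereas the methods name pIRES-hrGFP-1a. RBM47 was thus expressed from a plasmid in a transfected culture of a single cell line. Nothing states that libraries of a group came from separate cultures, so p-values measure the spread between these libraries, which may be technical.

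The centrosome, a pair of centrioles in a protein matrix, organizes microtubules in dividing cells. When a cell leaves the division cycle the older centriole can dock at the membrane as a basal body and build a primary cilium, an antenna for signals such as Hedgehog. IFT complexes carry cargo along the cilium, the BBSome moves membrane proteins out of it, and the transition zone at its base is the gate between cilium and cell. Genes of all of these are transcribed in cells without a cilium too, and many of the centrosome genes serve division.

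RBM47 was at 1.91, 2.33 and 1.94 FPKM (fragments scaled to gene length and library depth) in the NC replicates and at 131.3, 130.41 and 127.04 in the RBM47-OE replicates, a log2 fold change of 5.90 (standard error, SE, of 0.096; adjusted p = 1.7e-25 in edgeR). Library totals ran from 26792409 to 35477983 counts. EPCAM, CDH1, KRT8, KRT18 and KRT19, markers of an epithelial line, were present in every library, whereas VIL1 was at 0.02 to 0.09 FPKM. Of these, EPCAM was higher in RBM47-OE, at a log2 fold change of 0.26, and KRT18 and KRT8 were lower, at -0.36 and -0.27 (adjusted p = 0.0070, 0.0011 and 0.012 in edgeR), and the part of this in the results was not tested. Among markers of other cell types, COL1A1 lay between 1.31 and 1.72 FPKM in both groups, and FOXJ1, DNAH5 and DNAI1, which mark multiciliated cells, were at 0.20 FPKM or less. Of the 5 such markers that could be tested in edgeR, 0 had an adjusted p-value under 0.05, and 0 had an unadjusted one under 0.05, as with DESeq2 and limma. PECAM1 and VWF were at 0.14 FPKM or less, and PTPRC and COL1A2 were not among the genes in the count table under those symbols. In bulk RNA, more cells expressing a gene and more RNA per cell cannot be told apart.

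More of these genes rose than fell in RBM47-OE. By the quasi-likelihood test of edgeR, with a Benjamini-Hochberg adjusted p-value under 0.05, 39 of the 79 were higher (49.4%), beside 19.1% of all genes tested, and 4 were lower (5.06%), beside 16.9%. The other 36 did not pass. The median log2 fold change of the members was 0.31, and that of all genes tested was 0.00. Under the study's thresholds, which ask for a fold change over 1.5 and an unadjusted p-value under 0.01, 8 members were higher, beside 1.51% of all genes, and 0 were lower, beside 0.873%, a count that was also 0 with DESeq2 and limma. Each of the 3 RBM47-OE libraries lay above each NC library for 39 members, beside 23.2% of all genes, and below for 8, beside 23.4%.

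These counts depended on the GC content of the exons. Over all genes, log2 fold changes fell with exonic GC content, and the members are poor in GC, with a median of 41.4% against 49.0% for all genes tested. When each library's trend with GC content, fitted over all genes, was taken out by an offset (the GC offset), 6 members were higher, beside 6.0% of all genes, and 3 were lower, beside 8.46%. The median log2 fold change of the members was then 0.06. An order along GC content remained among the members with the offset (Spearman's rho of -0.30, beside -0.04 across all genes). It was stronger with the GC content of the coding sequence, at -0.47 beside -0.11. With that of the 3′ untranslated region it was -0.18 beside -0.13. Such an offset also takes away any true change that runs along GC content, and the trend runs with the groups, so that the effect of RBM47 and the trend cannot be told apart.

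**Figure D1:**
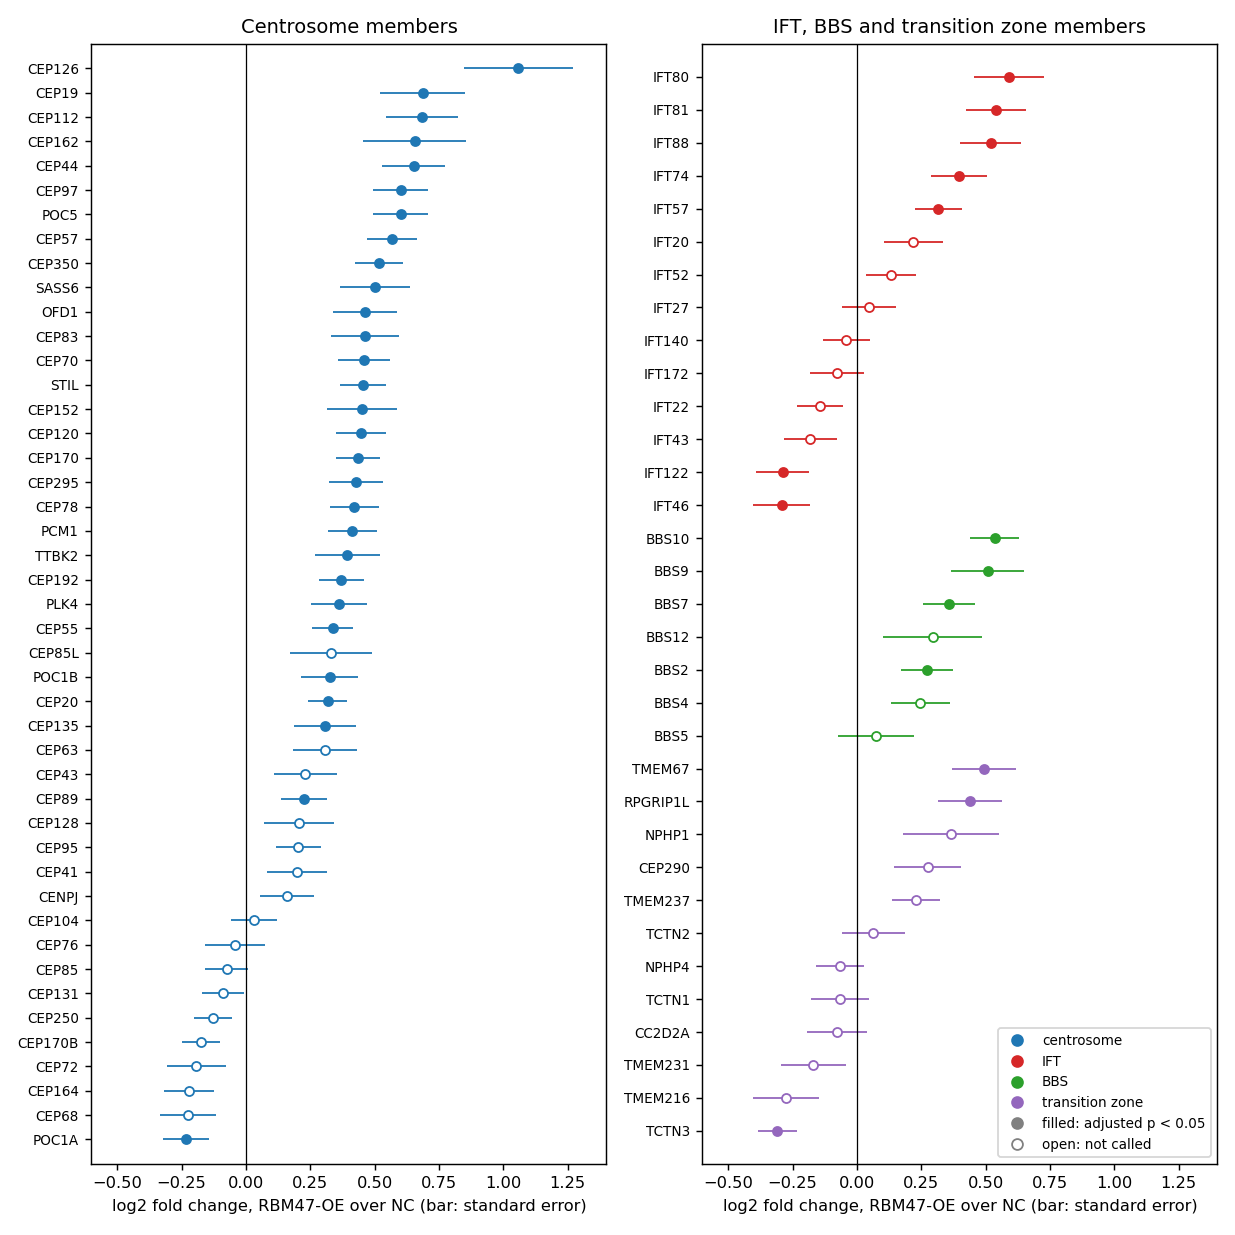
Log2 fold change of RBM47-OE over NC for members of the 4 classes without the GC offset (x axis, log2 units), with bars for the standard error, coloured by class, where filled points passed in edgeR at an adjusted p-value under 0.05. Of the centrosome genes 28 filled points lie to the right of 0 and 1 to the left, whereas the IFT and transition zone genes fall on both sides.

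The classes differed in their counts. Counts by class and by role stand beside 19.1% of all genes tested that were higher and 16.9% that were lower. Of the 45 centrosome genes, 28 were higher (62.2%) and 1 was lower (2.22%), with a median log2 fold change of 0.36. Of the 7 BBS genes, 4 were higher (57.1%) and 0 lower, the median was 0.29, and all 7 had a positive value. The 14 IFT genes gave 5 higher (35.7%) and 2 lower (14.3%) with a median of 0.09. The 13 transition zone genes gave 2 higher (15.4%) and 1 lower (7.69%) with a median of 0.06. These shares rest on few genes and are not read as differing from those of all genes. The GC offset brought the centrosome, BBS and IFT medians closer together, at 0.09, 0.07 and 0.04. The transition zone median changed sign to -0.10 and lay further from that of IFT than without the offset. The difference between classes was not tested.

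Levels were modest. The median FPKM of the members was 1.87, against 3.01 for all genes tested. The centrosome and IFT genes had medians of 2.0 and 2.24, and the BBS and transition zone genes 1.02 and 1.00. CEP20 was the highest of all members at a mean of 24.4 FPKM over the 6 libraries, and IFT52 (8.32), BBS10 (6.29) and TMEM216 (4.93) led their classes. Overlaps of at least 10% were found for 12 members, among them the named genes IFT80 and TTBK2.

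The rise was present in each RBM47-OE library but was smallest in replicate 1. Against the mean of the NC libraries, the median log2 difference of the members was 0.17, 0.34 and 0.36 in RBM47-OE replicates 1, 2 and 3. The same difference between an NC library and the other NC libraries was 0.04, -0.02 and -0.02. For centrosome genes alone the RBM47-OE medians were 0.19, 0.45 and 0.39. The transition zone genes had no common direction, at -0.13, -0.02 and 0.10.

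**Figure D2:**
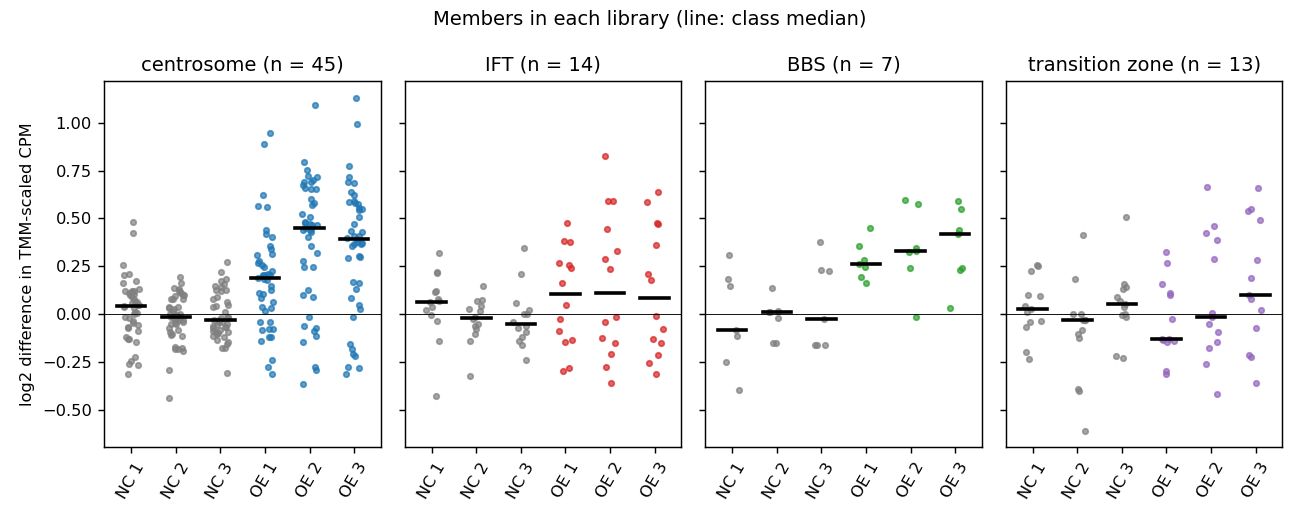
Log2 difference in TMM-scaled CPM (counts scaled to library size) of each member on the y axis. RBM47-OE libraries are set against the NC mean, and each NC library against the rest of its group, with a line at the class median. The centrosome and BBS medians lie above 0 in all 3 RBM47-OE libraries, and the transition zone medians lie on both sides of 0.

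Among centrosome genes the largest rise was that of CEP126 (ENSG00000110318, GRCh38 chromosome 11, 101915010 to 102001062, plus strand), which encodes a protein of the centrosome and the base of the cilium. Its reads numbered 52, 50 and 39 in NC against 98, 110 and 102 in RBM47-OE (values are given in the order of replicates 1, 2 and 3), or 0.21, 0.15 and 0.14 against 0.32, 0.39 and 0.39 FPKM. The groups did not overlap, and the gene was low in all libraries. The change was 2.08-fold (log2 1.06, SE 0.21, adjusted p = 0.00052 in edgeR), and with the GC offset it was 0.78 on the log2 scale (edgeR adjusted p = 0.012).

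CEP19 (ENSG00000174007, chromosome 3, 196706277 to 196712250, minus strand), a protein of the ciliary base that helps IFT trains to enter the cilium, stood at 1.38, 1.48 and 1.42 FPKM in NC against 2.85, 2.44 and 1.93 in RBM47-OE. The RBM47-OE libraries were all above the NC ones but spread widely, with a mean of 2.41 ± 0.461 (SD, n = 3) against 1.43 ± 0.050. The log2 fold change was 0.69 (SE 0.16, adjusted p = 0.0022 in edgeR). CEP112 (ENSG00000154240, chromosome 17, 65635537 to 66192133, minus strand), a coiled-coil protein of the centrosome, had 0.50, 0.47 and 0.50 FPKM in NC against 0.75, 0.86 and 0.89 in RBM47-OE, a log2 fold change of 0.68 (SE 0.14, adjusted p = 0.00060 in edgeR). Both kept an adjusted p-value under 0.05 with the GC offset, at log2 fold changes of 0.57 (adjusted p = 0.023) and 0.42 (adjusted p = 0.030).

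The other centrosome genes past the study's thresholds were CEP162, CEP44, CEP97 and POC5. CEP44 (ENSG00000164118, chromosome 4, 174283730 to 174333380, plus strand), which is needed for a new centriole to mature into a centrosome, was at 0.74, 0.86 and 0.79 FPKM in NC against 1.26, 1.39 and 1.30 in RBM47-OE. Its values were tight within each group, and the log2 fold change was 0.65 (SE 0.12, adjusted p = 0.00030 in edgeR). CEP97 (ENSG00000182504, chromosome 3, 101724534 to 101770562, plus strand), which caps centrioles and holds back cilium growth, rose from 1.42, 1.61 and 1.37 FPKM to 2.01, 2.74 and 2.29 (log2 fold change 0.60, SE 0.11, adjusted p = 0.00019 in edgeR). POC5 (ENSG00000152359, chromosome 5, 75674124 to 75717448, minus strand), a protein of the inner wall of the centriole, rose from 2.89, 2.83 and 3.18 FPKM to 4.14, 5.27 and 4.79 (log2 fold change 0.60, SE 0.11, adjusted p = 0.00020 in edgeR). After GC offsetting, CEP44, CEP97 and POC5 had log2 fold changes of 0.29, 0.24 and 0.26, and none passed in edgeR (adjusted p = 0.10, 0.078 and 0.059).

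CEP162 (ENSG00000135315, chromosome 6, 84124241 to 84227643, minus strand), which ties the transition zone to the microtubules of the cilium, had 0.40, 0.33 and 0.40 FPKM in NC against 0.51, 0.56 and 0.80 in RBM47-OE. The highest value, in RBM47-OE replicate 3, stood apart from the other two of its group. Its log2 fold change of 0.65 (SE 0.20, adjusted p = 0.012 in edgeR) was 0.44 without that library (adjusted p = 0.12) and 0.55 without NC replicate 2 (adjusted p = 0.072), and 0.30 with the GC offset (adjusted p = 0.32).

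**Figure D3:**
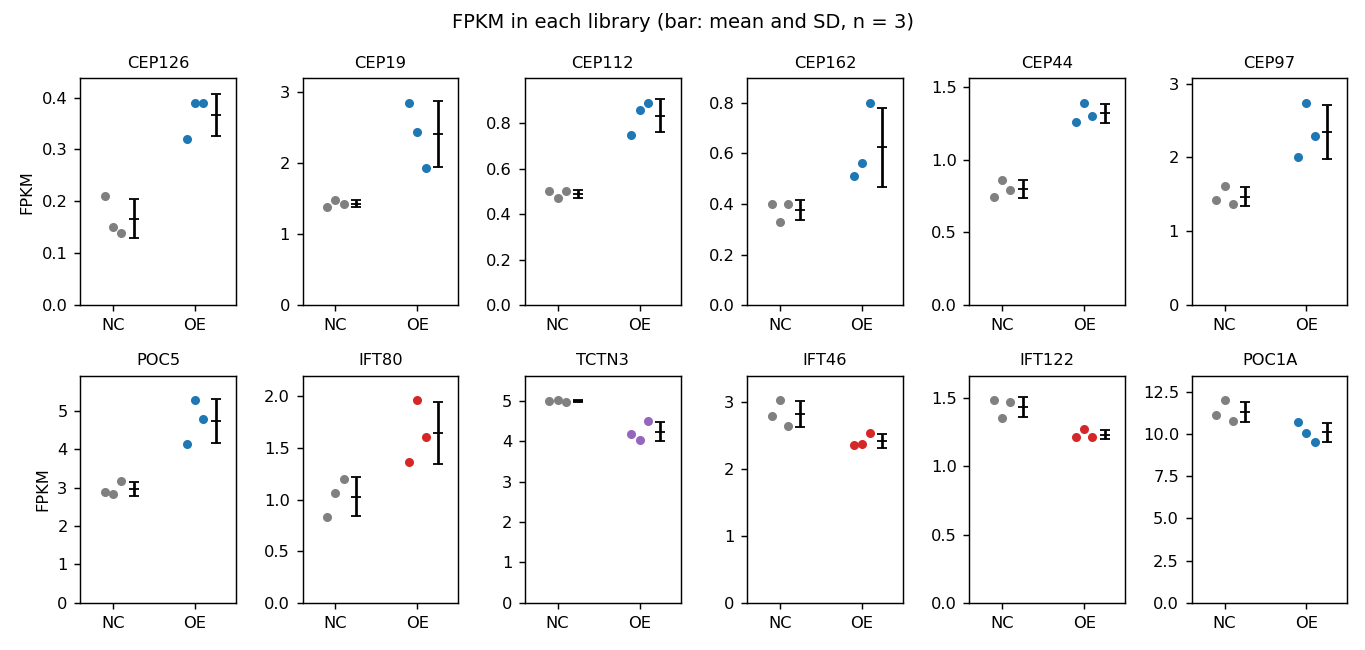
FPKM in each library (y axis, from 0, with its own scale for each gene) for the 8 members past the study's thresholds, CEP126 to IFT80, and for the 4 members called lower, TCTN3 to POC1A, with bars for the mean and SD of 3 libraries. In all 12 genes the NC and RBM47-OE points do not overlap, and in TCTN3, IFT46, IFT122 and POC1A the RBM47-OE points lie below.

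Genes of centriole assembly and duplication made up the largest group by role. The group also holds CEP76, which limits duplication, and CEP57, of the matrix around centrioles. Of its 17 genes, 12 were higher and 1 was lower, with a median log2 fold change of 0.37. With the GC offset 2 were higher (STIL and CEP57), 1 was lower (CEP76) and the median was 0.10. STIL, which recruits the cartwheel of the new centriole, was at 4.64, 4.37 and 4.73 FPKM in NC against 5.58, 7.89 and 6.37 in RBM47-OE (log2 fold change 0.45, SE 0.09, adjusted p = 0.00050 in edgeR). SASS6, the protein from which the cartwheel is built, had 1.76, 2.08 and 2.18 FPKM in NC against 2.21, 3.39 and 3.39 in RBM47-OE. Its RBM47-OE replicate 1 lay beside the highest NC library, and its scaled counts overlapped between groups (log2 fold change 0.50, SE 0.14, adjusted p = 0.0057 in edgeR). Without RBM47-OE replicate 2 the value for SASS6 was 0.42 (adjusted p = 0.053).

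PLK4, the kinase that starts centriole duplication, stood at 3.37, 3.07 and 3.60 FPKM in NC against 3.71, 5.35 and 4.52 in RBM47-OE. The log2 fold change was 0.36 (SE 0.11, adjusted p = 0.011 in edgeR), but RBM47-OE replicate 2 weighed on it, with 0.24 without that library (adjusted p = 0.12) and 0.30 without NC replicate 2 (adjusted p = 0.087). CENPJ, which sets centriole length, did not pass, at 2.0, 1.78 and 2.02 FPKM in NC against 2.29, 2.23 and 2.26 in RBM47-OE (log2 fold change 0.16, SE 0.10, adjusted p = 0.25 in edgeR). With the GC offset, STIL remained past the threshold at 0.23 (adjusted p = 0.034), whereas SASS6 (0.12), PLK4 (0.02) and CENPJ (-0.10) were not past it.

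POC1A, a protein of the centriole wall, was the only centrosome gene called lower without the offset. Its FPKM was 11.13, 11.98 and 10.79 in NC against 10.69, 10.05 and 9.54 in RBM47-OE, with a small gap between the groups. POC1A (ENSG00000164087, chromosome 3, 52075226 to 52154690, minus strand) fell by 0.23 in log2 level (SE 0.09, adjusted p = 0.042 in edgeR). That call did not hold without any 1 of 5 libraries, where the adjusted p ran from 0.068 to 0.21, and the value was -0.06 with the GC offset (adjusted p = 0.66). POC1B, its paralog, was higher, at a log2 fold change of 0.32 (SE 0.11, adjusted p = 0.025 in edgeR) that was 0.02 with the GC offset (adjusted p = 0.93), and was chosen for mention after its value was seen.

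Of 6 genes of the distal and subdistal appendages of the centriole, 4 were higher and 0 lower (4 and 1 at an unadjusted p-value under 0.05, in edgeR and in DESeq2). TTBK2, the kinase that releases the cap of the mother centriole, had 1.16, 1.05 and 0.98 FPKM in NC against 1.26, 1.94 and 1.22 in RBM47-OE. Its rise lay mostly in replicate 2, and the log2 fold change of 0.39 (SE 0.13, adjusted p = 0.017 in edgeR) was 0.17 without that library (adjusted p = 0.27), 0.38 without NC replicate 2 (adjusted p = 0.058) and 0.34 without NC replicate 3 (adjusted p = 0.084). With the GC offset 1 of the 6 appendage genes was higher, and TTBK2 was at 0.16 (adjusted p = 0.40). The antisense gene TTBK2-AS1 covers 18.3% of the exonic length of TTBK2. CEP164, the appendage protein that recruits TTBK2, was at 1.30, 1.4 and 1.29 FPKM in NC against 1.16, 1.30 and 1.15 in RBM47-OE and did not pass (log2 fold change -0.22, SE 0.10, adjusted p = 0.073 in edgeR), with -0.06 under the GC offset.

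Of 8 genes of the centriolar satellites and ciliary base, 5 were higher and 0 lower, also at an unadjusted p-value under 0.05 in edgeR and in DESeq2, and the median log2 fold change was 0.37. PCM1, the scaffold of the satellites, had 4.40, 4.27 and 4.01 FPKM in NC against 4.61, 6.91 and 6.30 in RBM47-OE (log2 fold change 0.41, SE 0.09, adjusted p = 0.0015 in edgeR). OFD1, which acts at satellites and at the distal end of the centriole, had 0.44, 0.39 and 0.39 FPKM in NC against 0.52, 0.61 and 0.64 in RBM47-OE (log2 fold change 0.46, SE 0.12, adjusted p = 0.0051 in edgeR). CEP20, another satellite protein, stood at 21.51, 20.88 and 20.95 FPKM in NC against 24.67, 28.36 and 29.93 in RBM47-OE, a small but separate rise (log2 fold change 0.32, SE 0.08, adjusted p = 0.0022 in edgeR). PCM1, OFD1 and CEP20 were at 0.09, 0.18 and 0.01 with the GC offset and did not pass. CEP250 and CEP68, which link the centrioles of a pair, did not pass, at log2 fold changes of -0.13 and -0.23 (edgeR adjusted p = 0.18 and 0.11).

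The IFT genes form a pair of complexes, of which IFT-B carries cargo toward the tip of the cilium and IFT-A works in the return. Of the 11 IFT-B genes 5 were higher and 1 was lower, and their median log2 fold change was 0.22. Of the 3 IFT-A genes measured 0 were higher, with the same count at an unadjusted p-value under 0.05 in edgeR and in DESeq2, and 1 was lower. Their median was -0.18. IFT-A has further subunits under other symbols, WDR35, TTC21B and WDR19, and these were higher, at log2 fold changes of 0.35, 0.53 and 0.64 (adjusted p = 0.035, 0.0013 and 0.0015 in edgeR). They are named because the counts for IFT-A cover only subunits with an IFT symbol, and were chosen after their values were seen. Their values with the GC offset were 0.01, 0.17 and 0.42 (adjusted p = 0.96, 0.27 and 0.047). Exonic GC content was 43.3% in the median IFT-B gene and 50.5% in the median IFT-A gene. In the fit with the GC offset, 0 of 11 and 0 of 3 were higher (1 of each at an unadjusted p-value under 0.05 in edgeR), and the medians were 0.06 and -0.10.

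IFT80 (ENSG00000068885, chromosome 3, 160256986 to 160399880, minus strand) had 0.83, 1.06 and 1.2 FPKM in NC against 1.36, 1.96 and 1.61 in RBM47-OE, a log2 fold change of 0.59 (SE 0.14, adjusted p = 0.0015 in edgeR). A protein-coding gene on the same strand covers 27.6% of its exonic length, so reads could have been lost or split between them. IFT81, which with IFT74 carries tubulin, had 1.30, 1.2 and 1.06 FPKM in NC against 1.59, 1.93 and 1.94 in RBM47-OE (log2 fold change 0.54, SE 0.12, adjusted p = 0.00096 in edgeR). IFT88, a core subunit needed for cilia to form, was nearly constant in NC at 1.08, 1.07 and 1.08 FPKM and stood at 1.55, 1.76 and 1.57 in RBM47-OE (log2 fold change 0.52, SE 0.12, adjusted p = 0.0014 in edgeR). IFT52, the highest of the class, overlapped between groups at 8.49, 7.37 and 7.30 FPKM in NC against 7.80, 9.77 and 9.16 in RBM47-OE (log2 fold change 0.13, SE 0.10, adjusted p = 0.30 in edgeR). In the GC offset fit IFT80, IFT81 and IFT88 were at 0.23, 0.29 and 0.19 and did not pass (adjusted p = 0.24, 0.056 and 0.28).

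IFT46 and IFT122 went the other way. IFT46 (ENSG00000118096, chromosome 11, 118544528 to 118572970, minus strand), an IFT-B subunit, had 2.79, 3.02 and 2.64 FPKM in NC against 2.35, 2.37 and 2.54 in RBM47-OE, and its log2 level fell by 0.29 (SE 0.11, adjusted p = 0.043 in edgeR). IFT122 (ENSG00000163913, chromosome 3, 129429607 to 129520510, plus strand), an IFT-A subunit, had 1.48, 1.35 and 1.47 FPKM in NC against 1.21, 1.27 and 1.21 in RBM47-OE, and its log2 level also fell by 0.29 (SE 0.10, adjusted p = 0.028 in edgeR). Both calls stood near the threshold. They were lost when libraries were scaled by their totals rather than TMM (adjusted p = 0.12 and 0.094) and when either NC replicate 1 (0.097 and 0.11), NC replicate 3 (0.057 and 0.11) or RBM47-OE replicate 2 (0.12 and 0.057) was left out. IFT46 was also lost without NC replicate 2 (0.20), and IFT122 without RBM47-OE replicate 3 (0.061). Offsetting for GC left IFT46 at -0.31 (adjusted p = 0.039) and IFT122 at -0.20 (adjusted p = 0.14).

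Of the 7 BBS genes, 5 encode subunits of the BBSome, and BBS10 and BBS12 encode chaperonin-like proteins that help assemble it. The BBSome has further subunits under other symbols. BBS10 (ENSG00000179941, chromosome 12, 76344474 to 76348415, minus strand) had 4.40, 5.02 and 5.52 FPKM in NC against 6.95, 7.97 and 7.85 in RBM47-OE, a log2 fold change of 0.54 (SE 0.09, adjusted p = 0.00019 in edgeR). BBS9 stood at 0.57, 0.47 and 0.46 FPKM in NC against 0.66, 0.82 and 0.77 in RBM47-OE (log2 fold change 0.51, SE 0.14, adjusted p = 0.0066 in edgeR). BBS7 had 2.66, 2.60 and 3.10 FPKM in NC against 3.48, 3.80 and 3.96 in RBM47-OE (log2 fold change 0.36, SE 0.10, adjusted p = 0.0073 in edgeR), and 0.30 without NC replicate 2 (adjusted p = 0.067). In each of these genes the groups were apart. BBS2 was the fourth higher member (log2 fold change 0.27, SE 0.10, adjusted p = 0.038 in edgeR), and BBS12, BBS4 and BBS5 were at 0.29, 0.25 and 0.07 without passing. Under the GC offset BBS10 was at 0.17, BBS9 at 0.38 and BBS7 at -0.01, and 0 of 7 passed in edgeR, where 1 had an unadjusted p-value under 0.05.

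The transition zone genes mostly did not pass. Of 9 genes of the MKS module, counting CEP290, 1 was higher and 1 was lower, and of the other 4 transition zone genes, among them RPGRIP1L, 1 was higher. TMEM67, a receptor-like membrane protein of the gate, had 0.90, 0.66 and 0.85 FPKM in NC against 0.99, 1.36 and 1.22 in RBM47-OE (log2 fold change 0.49, SE 0.12, adjusted p = 0.0032 in edgeR). RPGRIP1L, a scaffold of the gate, had 0.42, 0.43 and 0.45 FPKM in NC against 0.56, 0.62 and 0.66 in RBM47-OE (log2 fold change 0.44, SE 0.12, adjusted p = 0.0070 in edgeR). Neither passed with the GC offset, where TMEM67 was at 0.14 (adjusted p = 0.42) and RPGRIP1L at 0.10 (adjusted p = 0.60). CEP290, which joins the ciliary membrane to the microtubules, was at 0.40, 0.39 and 0.39 FPKM in NC against 0.37, 0.56 and 0.58 in RBM47-OE. RBM47-OE replicate 1 was thus below the NC libraries and the other two above them, and the log2 fold change of 0.27 (SE 0.13, adjusted p = 0.098 in edgeR) was 0.45 without that library (adjusted p = 0.0011). TMEM216, the highest of the class, overlapped between groups at 5.86, 4.39 and 5.59 FPKM in NC against 4.33, 5.11 and 4.27 in RBM47-OE (log2 fold change -0.28, SE 0.13, adjusted p = 0.097 in edgeR), and it was at -0.40 without NC replicate 2 (adjusted p = 0.036).

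TCTN3 (ENSG00000119977, chromosome 10, 95659823 to 95694143, minus strand), a tectonic of the MKS module that is needed for Hedgehog signalling, had the lowest adjusted p-value of the members that fell. Its FPKM was 5.00, 5.01 and 4.98 in NC against 4.18, 4.04 and 4.50 in RBM47-OE, so the NC libraries were alike and all RBM47-OE libraries lay below them. TCTN3 fell by 0.31 in log2 level (SE 0.08, adjusted p = 0.0029 in edgeR). The fall was larger with the GC offset, at -0.48 (adjusted p = 7.1e-05), since a gene of its GC content (43.3%) was on average higher in RBM47-OE. Its paralogs TCTN1 and TCTN2 did not pass, at log2 fold changes of -0.07 and 0.06.

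The members were ordered along GC content. Across the 79 members, Spearman's rho between exonic GC content and the log2 fold change was -0.75, beside -0.63 across all genes. With GC content of the coding sequence it was -0.78, beside -0.65. With that of the 3′ untranslated region, known for 77 members, it was -0.58, beside -0.65. In RBM47-OE replicates 1, 2 and 3, rho across members was -0.56, -0.71 and -0.81, beside -0.41, -0.59 and -0.67 across all genes. These values describe genes that share the same 6 libraries, and genes are not independent replicates. Members called higher had a median GC content of 38.7%, those not called 46.2% and the 4 called lower 48.9%. Of the 65 members under the median GC content of all genes, 38 were higher (58.5%) and 2 lower (3.08%). Of the 14 at or above it, 1 was higher (7.14%) and 2 were lower (14.3%). Over all genes tested, 19.1% were higher and 16.9% lower. All genes follow the same trend, and their shares on each side of that median were not counted. The split therefore cannot be read as a trait of these members. Exonic length showed no such order across members (rho = 0.01), whereas rho with the log2 fold change was 0.26 across all genes.

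**Figure D4:**
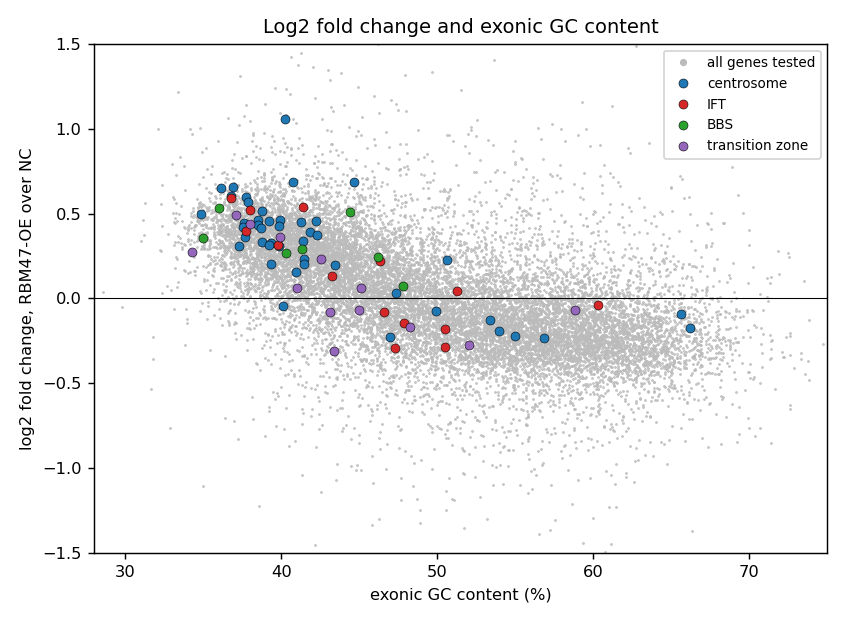
Log2 fold change without the GC offset (y axis, cut at 1.5 in either direction) against exonic GC content in percent (x axis) for all genes tested in grey and for the members coloured by class. The members follow the fall of the grey points from left to right, with CEP126 above it at a log2 fold change of 1.06.

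In the fit with the GC offset the 6 members that were higher were CEP126, CEP19, CEP112, CEP57, STIL and CEP89, all of the centrosome class, and the 3 that were lower were TCTN3, CEP76 and IFT46. CEP57, CEP89 and CEP76 lay outside the rule for naming genes and are given because they complete these counts. CEP57, a protein of the matrix around centrioles whose exons overlap the opposite-strand gene MTMR2 over 20.9% of their length, was at 0.23 (adjusted p = 0.037), CEP89, of the distal appendages, at 0.31 (adjusted p = 0.0058) and CEP76, which limits centriole duplication, at -0.32 (adjusted p = 0.048). CEP76 was at -0.04 without the offset (adjusted p = 0.81), and CEP89, whose GC content of 50.6% is above the median of all genes, was at 0.22 (adjusted p = 0.047). Of all members, 52 had a positive and 27 a negative value with the offset, against 58 and 21 without it.

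**Figure D5:**
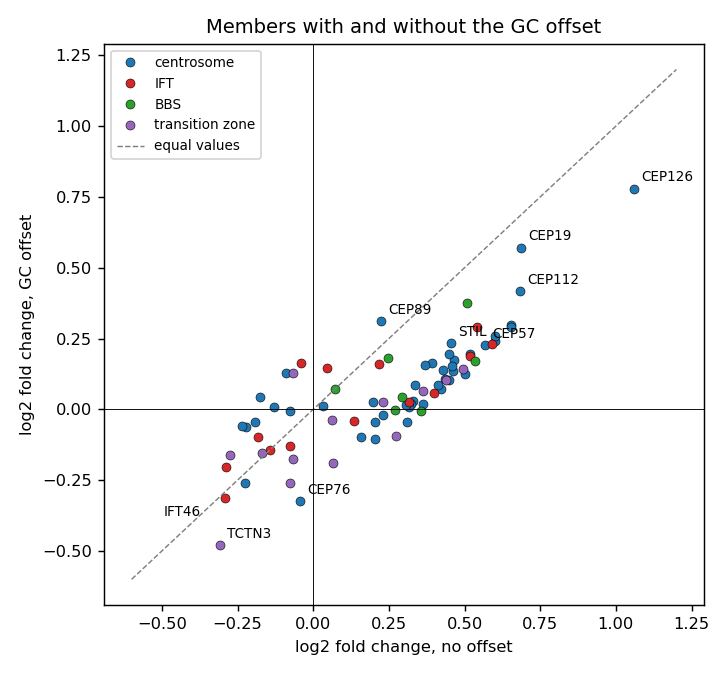
Log2 fold change of each member without (x axis) and with (y axis) the GC offset, coloured by class, with a dashed line at equal values and names for the 9 members that passed an adjusted p-value under 0.05 with the offset. Most points lie under the line, with a median of 0.31 on the x axis and 0.06 on the y axis.

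Genes of the same structures outside the symbol families were counted on lists for IFT, motors, the BBSome, the gate, the centriole, Hedgehog signalling, RFX factors and motile cilia. Their counts stand beside 19.1% of all genes higher and 16.9% lower, and 6.0% and 8.46% with the GC offset. Of 9 IFT subunits with other names, 7 were higher and 0 lower, the median log2 fold change was 0.46, and 4 were higher and 1 was lower with the GC offset. Of 8 ciliary motor genes 5 were higher and 1 was lower (2 and 0 with the offset, where 1 was lower at an unadjusted p-value under 0.05 in edgeR). The 5 further BBSome genes were ARL6, LZTFL1, MKKS and the subunits BBIP1 and TTC8. Of these, 3 were higher and 0 lower (0 and 0 with the offset, where 1 was higher at an unadjusted p-value under 0.05 in edgeR). The 14 further genes of the transition zone and ciliary base gave 1 higher and 0 lower (4 and 2 at an unadjusted p-value under 0.05 in edgeR), and their median, 0.01, sat near 0 like that of the transition zone members. With the offset 0 of them were higher, also at an unadjusted p-value under 0.05 in edgeR, and 1 was lower. Of 20 pericentriolar and centriolar genes, 8 were higher and 3 lower (2 and 1 with the offset), among the latter TUBG1, the gamma-tubulin of microtubule nucleation, which was named after its value was seen (log2 fold change -0.30, SE 0.07, adjusted p = 0.0020 in edgeR). Of 9 ciliary GTPase and Hedgehog genes, whose median exonic GC content was 58.7%, 4 were lower and 1 was higher. With the offset 0 were lower (1 at an unadjusted p-value under 0.05 in edgeR) and 1 was higher, and the median log2 fold change turned from -0.09 to 0.09. Of 7 motile cilium genes that could be tested, 1 was higher and 0 were lower. Of 5 RFX genes, only some of which encode known factors of ciliary promoters, 2 were higher and 1 lower. With the offset 1 motile cilium gene and 0 RFX genes were higher (3 and 1 at an unadjusted p-value under 0.05 in edgeR), and 0 of either list were lower, also at an unadjusted p-value under 0.05.

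RFX factors bind an inverted repeat found upstream of many ciliary genes. Promoter windows of RefSeq on GRCh38.p14, from 250 bases before to 50 after the start, were matched by symbol for 67 of the 79 members. A repeat of GTNNCC and GGNNAC separated by 0 to 3 bases, which reads the same on both strands, was found in 8 of these windows (11.9%), beside 4.26% of the windows of 12733 protein-coding symbols of the count table. A single arm spelled GTTGCC, searched on both strands and overlapping the repeat where both occur, was found in 22 windows (32.8%), beside 12.8%. By class the repeat was in 3 of 39 centrosome windows, 2 of 13 IFT, 0 of 6 BBS and 3 of 9 transition zone windows. It was in 3 of the 35 windows of members called higher and in 5 of the 32 others. A match describes letters and not binding.

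A part of the 8 windows is shown, for members called higher, called lower or not passed without the GC offset. The repeat is in capitals with 25 bases on each side, 5′ to 3′ on the strand of the gene. The windows of CEP192, called higher, and of TCTN1, not passed, also hold a repeat and are not shown.
CEP135, higher, chr4:55948863-55948926, plus strand: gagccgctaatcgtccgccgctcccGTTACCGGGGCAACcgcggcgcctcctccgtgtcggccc
IFT57, higher, chr3:108222416-108222479, minus strand: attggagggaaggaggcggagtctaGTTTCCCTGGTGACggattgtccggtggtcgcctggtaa
CEP41, not passed, chr7:130441137-130441201, minus strand: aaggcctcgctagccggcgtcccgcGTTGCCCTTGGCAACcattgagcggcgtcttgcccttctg
TMEM231, not passed, chr16:75556254-75556317, minus strand: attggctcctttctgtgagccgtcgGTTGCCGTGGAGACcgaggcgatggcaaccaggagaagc
TCTN3, lower, chr10:95694105-95694167, minus strand: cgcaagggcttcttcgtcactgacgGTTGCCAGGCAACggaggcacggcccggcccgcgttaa
IFT122, lower, chr3:129440187-129440251, plus strand: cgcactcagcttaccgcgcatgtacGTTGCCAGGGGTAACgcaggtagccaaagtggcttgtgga

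The repeats of CEP41, TCTN1 and TCTN3 are complete on both arms with the letters GTTGCC and GGCAAC. Their genes had log2 fold changes of 0.20, -0.07 and -0.31. CEP135, which builds the centriole core and had a log2 fold change of 0.31 (SE 0.12, adjusted p = 0.047 in edgeR), carries GTTACC in the first arm. IFT57, an IFT-B subunit at 0.32 (SE 0.09, adjusted p = 0.0090 in edgeR), holds a further repeat nearer to the start. The GC offset ended both calls, with CEP135 at -0.04 (adjusted p = 0.82) and IFT57 at 0.02 (adjusted p = 0.88), and IFT122 was no longer called lower with it.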

How the data were processed

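Poly(A) RNA of 6 libraries was sequenced. The authors trimmed reads with FASTX-Toolkit, aligned them to GRCh38 with HISAT2, counted uniquely mapped reads per gene, and deposited those counts without normalization and FPKM values, which are divided by gene length and mapped fragments. The strand setting of counting and the annotation release are not given in the sources used here, so overlapping genes can share reads.

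Counts were tested in edgeR 4.0.16 (R 4.3.3) by the quasi-likelihood test on condition alone, after TMM scaling and filterByExpr (min.count 10 and min.total.count 15). Benjamini-Hochberg adjustment ran over all 16260 genes. A standard error is the log2 fold change over the root of its F statistic. FPKM is not TMM-scaled, so its ratios can differ from the fold changes. Per-library differences are in log2 CPM with a prior count of 2. Exonic GC content came from GENCODE 44, and the GC offset was a loess curve with a span of 0.3 in each library. edgeR, limma 3.58.1 and DESeq2 1.42.0 were tested on simulated data.

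The genes named are members past the study's thresholds, those with the largest called change in each class, the highest in FPKM of each class, and a list of core genes. Members and lists were chosen with earlier results of these data known, and roles were assigned from general knowledge. A member symbol without a promoter window was left out of the promoter counts. A member gene is not reported here by name and is held in the counts and medians only.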

Additional observations from a re-analysis of the deposited data

How the results depend on the processing

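Depth and 3 libraries a group limit single genes of low count, and BBS1 was too low to be included. The count of higher members, 39, was 6 with the GC offset and 9 with the GC offset and replicate block. The count at the study's thresholds, 8, was 1 with either of these and 4 with the length offset. It was 0 with limma on log2(FPKM + 1) and 9 with limma on log2(FPKM + 0.1). A pseudocount of 1 shrinks the fold changes of genes near or under 1 FPKM, so that count of 0 says little about them. The count of lower members, 4, was 1 with library totals, limma with either pseudocount and no filter. Medians with the GC offset were 0.0574 for members, 0.0868 (0.0862 with the block) for centrosome, 0.0409 (0.0415) for IFT, 0.0724 (0.0703) for BBS and -0.10 for transition zone genes. With library totals, which moved the median of all genes to 0.06, the IFT median was 0.15, and it was 0.13 and 0.15 with limma (pseudocounts 1 and 0.1) and 0.0753 with the length offset, where the transition zone median was -0.0512. With the GC offset BBS7 changed sign to -0.0055 (-0.0046 with the block), IFT52 to -0.042 (-0.0409), CENPJ to -0.10 and CEP290 to -0.10. The causes were not tested.

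With each library left out in turn, 30 to 46 members were higher, 1 to 5 lower, and 5 (without RBM47-OE replicate 2) to 14 (without RBM47-OE replicate 1) passed the study's thresholds. Lower counts of 1 came without NC replicate 1, NC replicate 3 or RBM47-OE replicate 2. Medians ran from 0.24 to 0.37 for members, 0.29 to 0.45 for centrosome, 0.0627 to 0.14 for IFT, 0.28 to 0.43 for BBS and -0.0785 to 0.11 for transition zone genes, where each NC library left out gave a negative median.

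The replicate numbers are shared between groups but did not pair the libraries. The correlations of same-numbered deviations were -0.06, -0.01 and -0.02, and no library correlated best with its own number. With the replicate block, 37 members were higher and 2 lower, and IFT46 and POC1A were no longer called (adjusted p = 0.056 and 0.063 in edgeR). RLE factors and at least 10 counts in every library changed no call among the 31 named genes, DESeq2 lost IFT46, and limma on log2(FPKM + 1) lost 8.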
